A study of Akebia trifoliata with 9 samples.

Results

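In leaves of Akebia trifoliata, a woody vine, 141 of the 82321 genes of a transcriptome assembly (0.171%) stood higher in plants given curcumin under acid rain than in the other plants of the study. They were selected by measured values: the rule used the mean TPM of each group and the overlap of the libraries in all 9 libraries. TPM is a gene's share of all transcripts of a library, corrected for transcript length and scaled to the same total in every library. A member had a mean of at least 5 TPM with curcumin, and all 3 of its curcumin values lay above all 6 other values. Its mean TPM + 1 with curcumin was at least 2 times the larger of the other 2 group means + 1, and those means were within 1.5-fold of each other.

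The libraries fell into 3 groups of 3. All plants were grown from cuttings. CUR50 plants had curcumin at 50 µmol/L poured onto the roots and, on their leaves, simulated acid rain at pH 2.0. CUR0 plants had the same spray and no curcumin, and Control plants had distilled water on roots and leaves. Treatment lasted 28 days. No group had curcumin without acid rain, so what curcumin does and what curcumin does only under acid rain cannot be told apart.

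Curcumin is the yellow polyphenol of turmeric, known in chemistry as a scavenger of oxygen radicals and a binder of metal ions. Strongly acid rain damages the wax layer and cells of leaves and leaches minerals from them, and plants answer such stress with antioxidant enzymes, cell wall changes and defence proteins. These are textbook points and not results. The members are known by assembly identifiers alone, which the files do not pair with names: none of the 82321 matched the gene table of the Akebia trifoliata assembly ASM1797944v1, so no function, position or sequence is given for any of them, and gene lists could not be applied.

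The libraries within CUR50 were less alike than those of the other groups. Tests and shares over all genes use the 31754 that reached 1 TPM in 3 or more libraries. Across these, correlations of log2(TPM + 1) ran from 0.895 to 0.919 within CUR50, from 0.944 to 0.950 within CUR0 and from 0.947 to 0.951 within Control. CUR50 replicate 2 was the closest of the 3 to the CUR0 mean, with a correlation of 0.937, beside 0.913 for replicate 1 and 0.920 for replicate 3. It was also the closest to the Control mean, with 0.918, beside 0.880 and 0.887. The depth of the libraries is unknown, because TPM keeps no read number. Genes listed above 0 TPM numbered 53436, 56834 and 53867 in CUR50 replicates 1, 2 and 3. In the CUR0 and Control libraries they numbered 56031 to 58374. Whether depth or make-up of the libraries lies behind these numbers was not tested. The labels number the libraries of a group as replicates, but the plant numbers they give leave unclear whether each library is its own plant. Spreads and p-values therefore describe how these libraries differ, and some of that may be technical. In leaf tissue taken whole, a higher share of a transcript can mean more cells of a type or more RNA per cell, which cannot be told apart.

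The rule narrowed the assembly in steps. A mean of at least 5 TPM in CUR50 was met by 15202 genes. In 2227 of these the lowest CUR50 value lay above the 6 others, 224 of them also met the ratio of 2, and 141 also had Control and CUR0 within 1.5-fold. Separation of all 3 CUR50 values is not rare in these data: it held for 8.54% of the 31754 tested genes. Of the genes that missed a single condition, most missed the ratio, with 1915. Another 244 failed only through overlap of the libraries, 200 only through a low mean, and 83 only because CUR0 and Control differed by more than 1.5-fold.

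The thresholds cut through a continuous range. The member closest to the ratio threshold averaged 84.3 TPM in CUR50, 41.7 in CUR0 and 36.2 in Control, a ratio of 2.00 to the larger mean. The nearest gene outside averaged 39.2, 13.96 and 19.2 TPM, a ratio of 1.99. On the mean, the member nearest the limit averaged 5.06 TPM in CUR50 and the nearest gene outside 4.82 TPM. On the overlap, the tightest member had 12.7 TPM as its lowest CUR50 value and 12.57 TPM as its highest other value, while the nearest gene outside had 3.43 TPM for both. On the difference between CUR0 and Control, the closest member differed by 1.49-fold and the nearest gene outside by just over 1.5-fold.

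**Figure D1:**
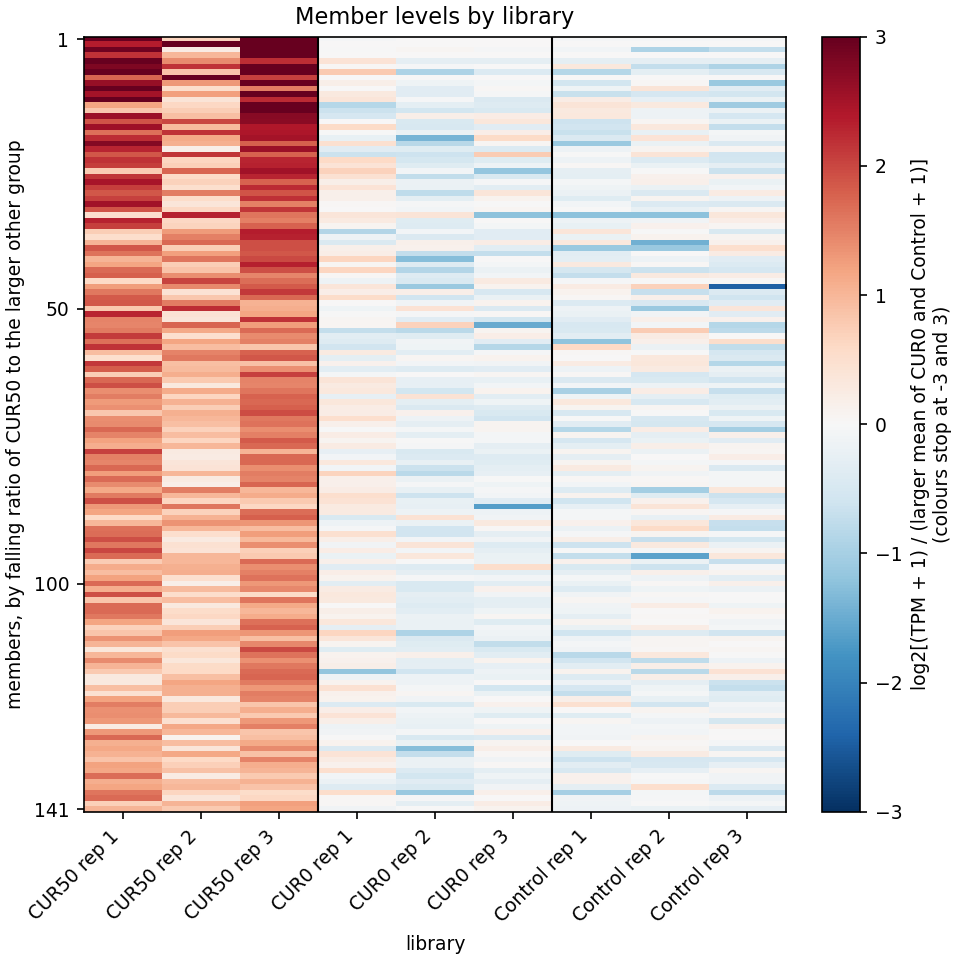
Each row is 1 of the 141 members, sorted by the ratio of its CUR50 mean to the larger of its CUR0 and Control means, and each column is 1 library. Colour is log2 of TPM + 1 over that larger mean + 1; the CUR50 columns are red throughout, palest in replicate 2, whose median is 0.88.

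Most members had low levels in every group. The median member averaged 13.97 TPM in CUR50, 4.14 TPM in CUR0 and 3.94 TPM in Control. The median ratio of CUR50 to the larger other mean, each + 1, was 2.54, with quartiles of 2.23 and 3.07. A ratio under 2.5 was found in 68 members, at least 3 in 40, at least 4 in 20 and at least 5 in 14, up to 10.97. These ratios are what the rule selected on and support nothing by themselves.

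By level, 51 members averaged 5 to 10 TPM in CUR50, 41 averaged 10 to 20, 21 averaged 20 to 50, 16 averaged 50 to 100 and 12 averaged 100 TPM or more. They made up 1.26%, 0.951%, 0.501%, 1.03% and 1.08% of all genes at these CUR50 levels, so members occurred at every level. In 34 members both CUR0 and Control averaged at least 10 TPM. In 8 members all 6 values outside CUR50 were under 1 TPM, and 3 of these were listed at 0 in all 6. For such genes the files do not show whether the transcript was missing or too rare to be sequenced.

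Between the groups without curcumin the members differed little, as the rule required. The CUR0 mean was above the Control mean in 81 members, below it in 56 and equal in 4.

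**Figure D2:**
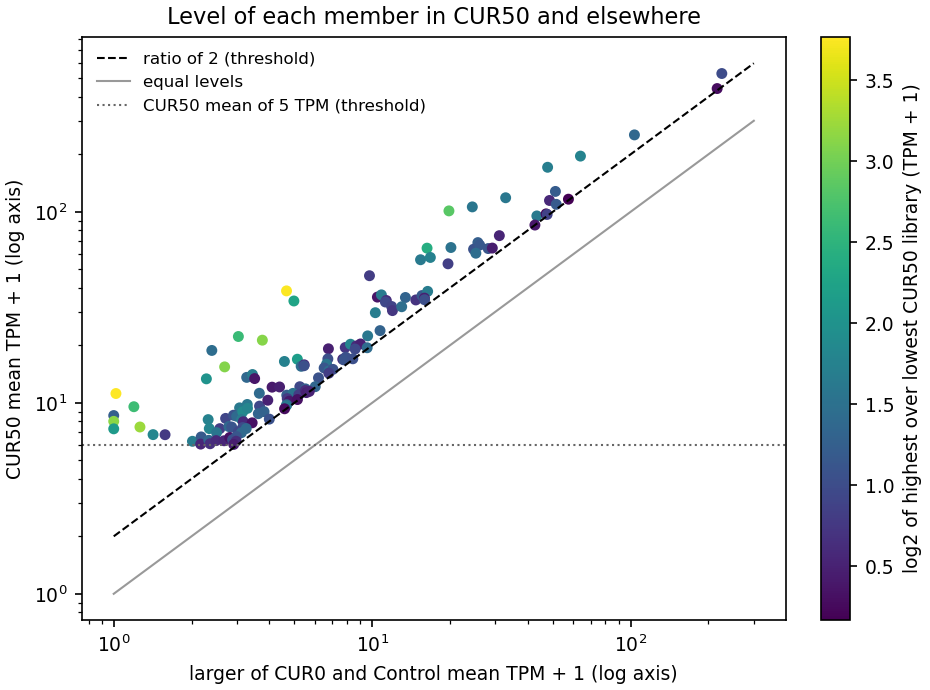
Each point is a member, with the larger of its CUR0 and Control means + 1 on the x axis and its CUR50 mean + 1 on the y axis, both in TPM on log axes. Points lie above the dashed line of ratio 2 and the dotted line of 5 TPM by selection; the lightest points, with the most uneven CUR50 libraries, lie at high ratios.

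The genes singled out are the 2 members with the largest ratio of CUR50 to CUR0 and the next 2 by the ratio of CUR50 to Control. They are extremes, and 3 of the 4 show how far the CUR50 libraries could lie apart.

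TRINITY_DN8486_c0_g1 had 21.1, 0.62 and 8.88 TPM in CUR50 replicates 1, 2 and 3. It had 0, 0.03 and 0.03 TPM in the CUR0 libraries and was listed at 0 in all 3 Control libraries. Replicates 1 and 3 of CUR50 carried nearly all of its signal, and replicate 2 was below 1 TPM while still above the other groups. Its ratio of group mean TPM + 1 was 10.97 for CUR50 over CUR0. It failed the filter of 1 TPM in 3 libraries and was not tested, and its assembly cluster holds 3 genes, among which reads may be divided. One of the others had 29.6, 29.03 and 37.0 TPM in CUR50, against 22.7, 20.2 and 23.1 TPM in CUR0 and 22.8, 22.7 and 21.5 TPM in Control, without overlap and with little difference among the CUR50 libraries. The remaining gene was under 1 TPM in every library.

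TRINITY_DN10442_c1_g1 had 4.12, 7.55 and 11.1 TPM in CUR50 replicates 1, 2 and 3 and was listed at 0 in all 3 CUR0 and all 3 Control libraries. The groups did not overlap, and of the 4 genes singled out its CUR50 libraries lay closest together, with replicate 3 highest. No fold is given against groups listed at 0. It is alone in its cluster.

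TRINITY_DN2212_c0_g1 had 34.04, 4.57 and 74.1 TPM in CUR50, against 3.60, 3.85 and 3.54 TPM in CUR0 and 3.37, 1.44 and 1.82 TPM in Control. CUR50 replicate 2 stood just above the highest CUR0 value, while replicate 3 was far above every other library. The CUR50 mean was 37.6 ± 34.9 TPM, against 3.66 ± 0.16 TPM in CUR0 and 2.21 ± 1.02 TPM in Control (SD, n = 3 each).

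TRINITY_DN1945_c0_g3 had 26.8, 4.51 and 32.4 TPM in CUR50, against 4.23, 0.59 and 1.29 TPM in CUR0 and 0.69, 1.48 and 1.19 TPM in Control. Here CUR50 replicate 2 and CUR0 replicate 1 nearly met. The means were 21.3 ± 14.8 TPM in CUR50, 2.04 ± 1.93 TPM in CUR0 and 1.12 ± 0.40 TPM in Control (SD, n = 3 each). Its cluster holds 3 genes, and both others were high in the same CUR50 libraries. One had 70.7, 3.86 and 77.02 TPM in CUR50, against 6.93, 7.11 and 4.59 TPM in CUR0 and 4.32, 2.05 and 1.82 TPM in Control. The other had 15.2, 0.42 and 10.2 TPM in CUR50, against 1.48, 0.43 and 0.29 TPM in CUR0 and 0.97, 0.73 and 0.28 TPM in Control. In both, CUR50 replicate 2 lay within the range of the other groups, so they failed the condition on overlap. The first of them was also higher in CUR0 than in Control by more than the 1.5-fold that the rule allows.

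**Figure D3:**
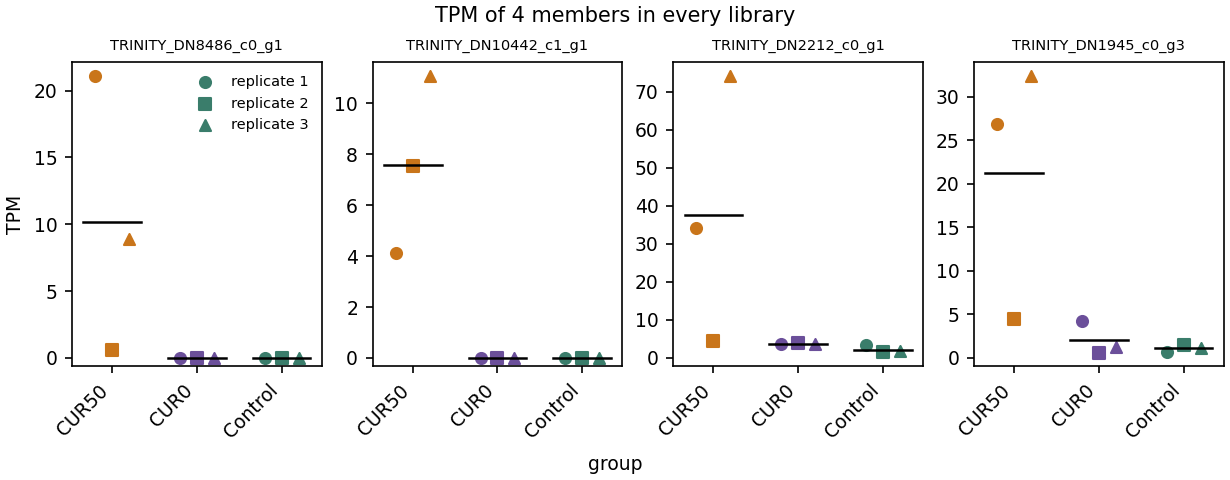
TPM of the 4 genes singled out in every library, by group (CUR50, CUR0, Control), with a line at each group mean and a marker shape for each replicate number. Replicate 2 (square) of CUR50 lies at 0.62, 4.57 and 4.51 TPM in the panels of TRINITY_DN8486_c0_g1, TRINITY_DN2212_c0_g1 and TRINITY_DN1945_c0_g3, near the other groups.

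The abundant members were no more even than the rest. Those averaging 100 TPM or more had a median of 2.44-fold between their highest and lowest CUR50 library (each + 1), beside 2.21-fold over all members. The most abundant had 511.7, 360.8 and 715.4 TPM in CUR50 replicates 1, 2 and 3, against 269.0, 201.9 and 202.8 TPM in CUR0 and 214.3, 235.5 and 220.8 TPM in Control. It ranked 143 among all genes by CUR50 mean, and its ratio to the larger other mean was 2.35. The next had 444.1, 483.0 and 397.0 TPM in CUR50, against 284.8, 131.2 and 220.3 TPM in CUR0 and 166.5, 255.1 and 224.6 TPM in Control. In this gene CUR50 replicate 2 was the highest of all libraries, and CUR0 spread widely. Another, next in level, had 283.1, 131.3 and 341.7 TPM in CUR50, against 127.1, 87.1 and 79.9 TPM in CUR0 and 108.1, 98.8 and 100.8 TPM in Control. Its CUR50 replicate 2 and CUR0 replicate 1 lay close together, as in TRINITY_DN1945_c0_g3.

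The most even member, chosen after the values were seen, had 121.2, 107.9 and 117.5 TPM in CUR50, against 49.8, 44.7 and 47.1 TPM in CUR0 and 61.7, 55.6 and 52.2 TPM in Control. All 3 CUR50 libraries were alike and far from the rest.

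Summed over members, the transcripts took 5275, 3578 and 6445 TPM in CUR50 replicates 1, 2 and 3. They took 2173, 1496 and 1694 TPM in CUR0 and 1692, 1864 and 1699 TPM in Control. As shares of all transcripts, this was 0.510% ± 0.144 in CUR50, 0.179% ± 0.035 in CUR0 and 0.175% ± 0.010 in Control (SD, n = 3). The CUR50 sum was 2.85 times that of CUR0 and 2.91 times that of Control, and 3.28 and 3.35 times without CUR50 replicate 2. The rule placed every CUR50 value of a member above its other values, so this gap was fixed by the selection. The 10 most abundant members made up 42.6% of the CUR50 sum. Without them the sums were 2929 ± 903 TPM in CUR50, 933 ± 154 TPM in CUR0 and 890 ± 52 TPM in Control (SD, n = 3).

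**Figure D4:**
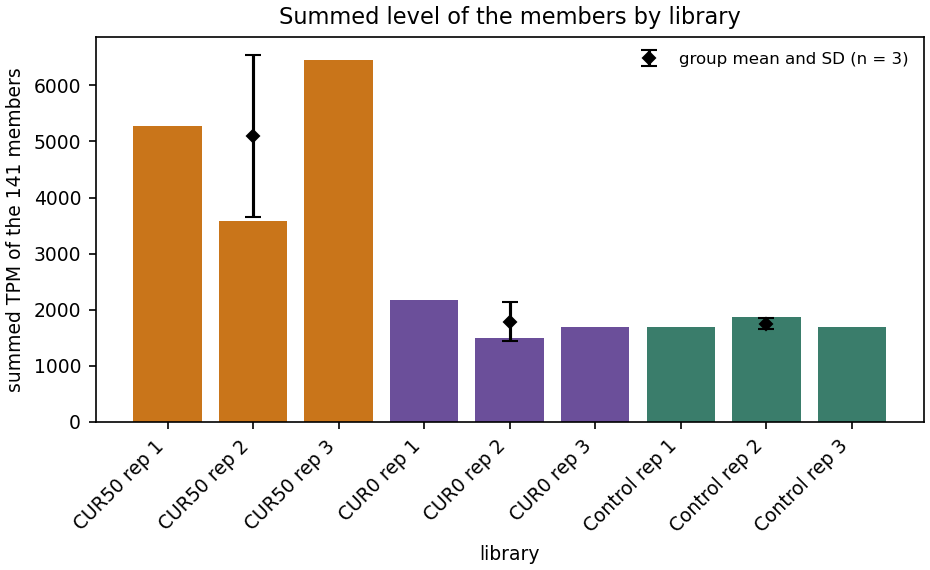
Bars give the summed TPM of the 141 members in each library, and diamonds with error bars the group mean and SD (n = 3). CUR50 runs from 3578 to 6445 TPM, by selection above the highest other library, CUR0 replicate 1 at 2173 TPM.

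The rise was unequal among the curcumin libraries. Relative to the larger of the CUR0 and Control means, the median member stood 1.51 higher in CUR50 replicate 1, 0.88 higher in replicate 2 and 1.61 higher in replicate 3, on the log2(TPM + 1) scale. Replicate 2 was the lowest of the 3 in 95 of the 141 members (67.4%) and the highest in 10. Over tested genes without ties replicate 2 was lowest in 26.6% and highest in 35.1%, and replicate 1 was the one most often lowest, in 52.7%. The place of replicate 2 in the members was not its place over all genes. These shares are descriptions, since the rule read the CUR50 values.

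A level of at least 2 times the larger other mean (each + 1) was reached by 115 members in CUR50 replicate 1, 49 in replicate 2 and 120 in replicate 3. It was reached in all 3 libraries by 27 members, in 2 by 89 and in 1 by 25. Of the 89, 67 missed it in replicate 2 alone. The highest CUR50 library exceeded the lowest by 2.21-fold in the median member (each + 1). It did so by under 1.5-fold in 26 members and by at least 3-fold in 38, of which 32 were lowest in replicate 2. Replicates 1 and 3 also differed: 21 members were at least 2 times higher in replicate 3, and 14 were at least 2 times higher in replicate 1, on TPM + 1. The median ratio to the larger other mean was 3.55 among those 38 and 2.27 among the 26 even members. A single high CUR50 library raises both measures, so they are tied by construction.

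**Figure D5:**
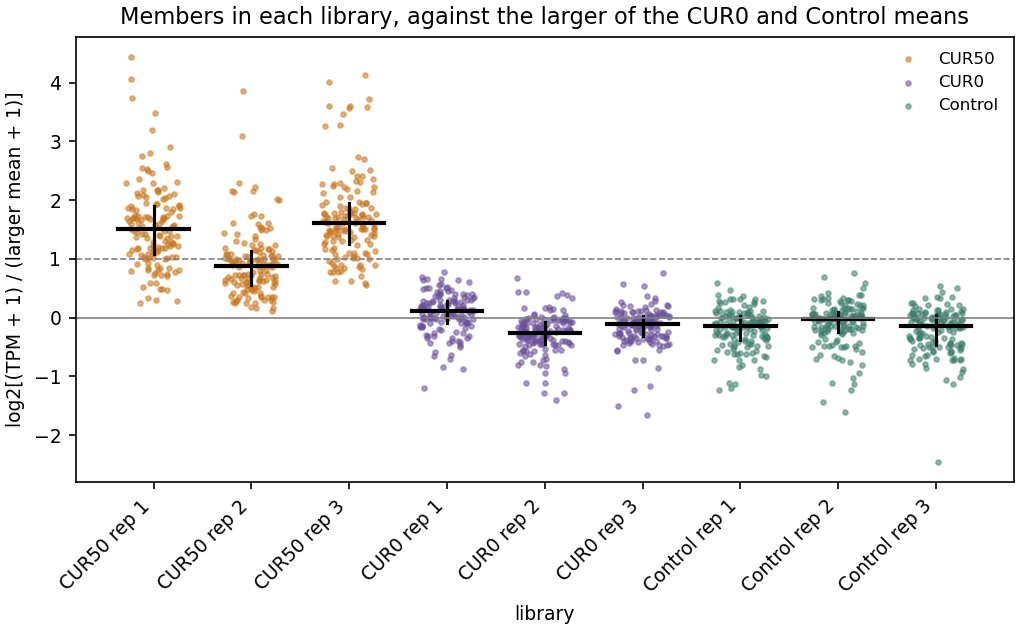
Each point is a member in 1 library, as log2 of TPM + 1 over the larger of its CUR0 and Control means + 1; horizontal bars are medians and vertical bars quartiles. Medians are 1.51, 0.88 and 1.61 in CUR50 replicates 1 to 3, 0.11 in CUR0 replicate 1 and below 0 in the other CUR0 and Control libraries.

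On the other side of the gap, CUR0 replicate 1 came nearest to the CUR50 libraries. Leaving aside the 3 members listed at 0 outside CUR50, it held the highest of the 6 other values in 68 of 138 members (49.3%), beside 21.7% of all tested genes. The median member was 0.25 higher in CUR0 replicate 1 than in the mean of CUR0 replicates 2 and 3 on the log2 scale, beside 0.11 over all tested genes. The lowest CUR50 value was 1.35 times the highest other value in the median of the 138. It was at least 1.5 times as high in 50 of the 141 members and at least 2 times in 16, with the 3 listed at 0 elsewhere counted in. The gap was thus narrow for most members, and its 2 sides were most often CUR50 replicate 2 and CUR0 replicate 1.

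The set of genes that the rule kept changed with the libraries used. Leaving out a library leaves fewer values for the condition on overlap, which by itself can let in more genes. Without CUR50 replicate 2 the rule, which keeps at most the 300 largest ratios, was met by 507 genes before that limit. The 300 kept held 69 of the 141 members. Members that still met the rule but had smaller ratios could drop out through the limit, and their number was not counted. Without CUR0 replicate 1 the rule kept 279 genes, including 137 of the members, and without CUR50 replicate 1 it kept 246, including 99. Leaving out CUR50 replicate 3 gave 142 genes, of which 102 were members. With the other 5 libraries left out in turn it kept between 129 and 160 genes.

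Across all tested genes, differences were fitted with limma on log2(TPM + 1), with p-values adjusted over all 31754 genes and called under 0.05. The filter passed 138 members. The 3 that failed it had under 1 TPM in all libraries outside CUR50 and in CUR50 replicate 2. The rest of the 8 members with under 1 TPM in all 6 other libraries passed it through their CUR50 values alone. They are included in the counts of calls that follow, and each of them was called against both CUR0 and Control. Some further members reached 1 TPM outside CUR50 in fewer than 3 libraries, so they also needed their CUR50 values to pass. Their number was not counted, and some of them were called in both comparisons. For CUR50 against CUR0, 60 of the 138 were called higher, where 2.57% of all tested genes were called higher and 2.2% lower. For CUR50 against Control, 102 were called higher, where 6.17% of all genes were called higher and 6.45% lower. The rule used both contrasts, so nothing is read from these counts. They share the CUR50 libraries and 1 spread estimate. Both calls were made for 58 members, only that against CUR0 for 2, only that against Control for 44 and neither for 34. The same split over all tested genes was not counted, so nothing is read from it either.

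The median difference of the tested members on the log2(TPM + 1) scale was 1.37 against CUR0 and 1.44 against Control. The median over all tested genes was 0.12 and 0.03. After median-of-ratios scaling, which brought the median of all genes to 0.01 in both comparisons, the members stood at 1.24 and 1.42. The direction of these differences was fixed by the selection. The spread between CUR50 libraries enters the standard error, so calls by evenness are a description only. Of the 26 with under 1.5-fold between CUR50 libraries, 18 were called against CUR0 and 25 against Control, while of the 35 tested members with at least 3-fold, 8 and 22 were called. Over all tested genes, of any evenness, 2.57% and 6.17% were called higher. The median standard error was 0.34 for members and 0.25 for all tested genes. The spread between libraries, as the median SD of log2(TPM + 1), was 0.60 for members in CUR50, 0.27 in CUR0 and 0.25 in Control, beside 0.32, 0.21 and 0.18 for all tested genes. Members and all tested genes were not matched on level.

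The number of calls moved with the libraries fitted, and so did the share over all tested genes. In a fit of just the 6 libraries involved, 6 members were called against CUR0, where 0.167% of all genes were called higher, and 54 against Control, where 3.57% were. Without CUR0 replicate 2 or 3, 3 members were called against CUR0 each time, beside 0.059% and 0.043% of all genes. Without CUR50 replicate 3, 15 were called (0.377% of all genes), and without CUR50 replicate 2, 87 (4.35%). Leaving out Control replicate 1, 2 or 3, which changes the spread estimate and the set of genes tested, gave 27, 25 and 26 (1.06%, 0.611% and 0.777%). Against Control, 51 were called without CUR50 replicate 3 (3.34%), and 35, 38 and 33 without Control replicate 1, 2 or 3 (2.04%, 1.87% and 1.54%). What caused these shifts was not tested.

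For CUR0 against Control, which the rule held within 1.5-fold, limma called 0 of the 138 members. An unadjusted limma p under 0.05 was found in 3 of them, beside 23.4% of all tested genes. The fit took its spread from all 9 libraries, so the spread between CUR50 libraries enters these counts. As the median SD of log2(TPM + 1) that spread was 0.60 for members, beside 0.32 for all tested genes. Its part in the counts was not tested. Over all tested genes 2.96% were called higher and 5.3% lower. The median difference of the members was 0.06, beside -0.09 over all tested genes, and 0.16 beside 0.01 after median-of-ratios scaling. As deposited, the members ran from -0.55 to 0.64. With only these 6 libraries, 2 members were called higher and 2 lower in CUR0, where 5.68% of all genes were called higher and 9.56% lower. Without CUR50 replicate 3, 2 members were called, beside 9.59% of all genes in either direction. A missed threshold does not show that a member had the same level in both groups.

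Some members had other genes in their assembly cluster. A cluster collects assembled sequences that share stretches, such as gene copies, alleles or fragments, so its genes can divide reads. The members came from 139 clusters; 80 were alone in theirs, and 61 shared one with other genes (43.3%, beside 52.5% of tested genes). Their clusters held 90 genes that were not members, and 62 of these were tested. These 90 are the genes of the clusters that failed the rule, so those that met it in full had been taken out, and their values are a description from which nothing is read about the members.

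Of the 62, 2 rose and 1 fell by limma for CUR50 against CUR0, beside 2.57% and 2.2% of all genes. Their median difference was 0.20, beside 0.12 over all tested genes, and 59.7% of the differences were positive, beside 61.2%. For CUR50 against Control, 8 rose and 5 fell, beside 6.17% and 6.45% of all genes, with a median of 0.08 and 53.2% positive, beside 0.03 and 52.6%. All 3 CUR50 values lay above the 6 others in 6 of the 62 (9.68%, beside 8.54%). Summed over all 90, they took 1097 ± 129 TPM in CUR50, 821 ± 31 TPM in CUR0 and 964 ± 12 TPM in Control (SD, n = 3). The 3 calls against CUR0 became 10 without CUR50 replicate 2 and 6 without CUR50 replicate 1, where 7.50% and 11.3% of all genes were called in either direction, beside 4.77% with all libraries. There was 1 call without CUR50 replicate 3 or any Control library, beside 1.30% to 2.48% of all genes, and none without any CUR0 library, beside 0.073% to 3.04%. Against Control the 13 calls, beside 12.6% of all genes, dropped to 5 without CUR50 replicate 3 or Control replicate 1, beside 8.43% and 4.17%. They dropped to 2 without Control replicate 2 or 3, beside 3.59% and 3.04%.

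In 2 clusters a pair of genes both belonged to the members. In the first pair, one gene had 15.7, 14.8 and 25.03 TPM in CUR50, against 8.36, 6.69 and 5.56 TPM in CUR0 and 5.39, 7.86 and 7.36 TPM in Control. Its partner had 7.37, 11.7 and 22.0 TPM in CUR50, against 5.14, 5.14 and 4.94 TPM in CUR0 and 4.21, 6.65 and 6.57 TPM in Control. Both were highest in CUR50 replicate 3. In the second pair, one gene averaged 18.8 ± 4.4 TPM in CUR50, 7.05 ± 1.60 TPM in CUR0 and 7.68 ± 1.26 TPM in Control (SD, n = 3). The other averaged 62.7 ± 22.6 TPM in CUR50, 20.9 ± 5.9 TPM in CUR0 and 23.7 ± 2.3 TPM in Control (SD, n = 3). Whether the genes of a pair divide the same reads was not tested.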

How the data were processed

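The authors deposited TPM values for 9 leaf libraries; fastp, Bowtie2, RSEM and DESeq2 are named, per the submitters' processing notes, without versions. Assembler, genome build and filters: not given in the sources used here. All identifiers have the form the Trinity assembler writes. Each column was matched to a library by title (2 Control columns lack a letter). The members follow the rule in the text. Members, lists and tests were chosen with earlier results of these data known. Differences were computed with limma 3.58.1 in R 4.3.3 (eBayes with an intensity trend) on log2(TPM + 1), with group means and all 9 libraries in 1 fit, for genes reaching 1 TPM in 3 or more libraries, and Benjamini-Hochberg adjustment within each comparison. The fit was tried on simulated data with the same spread in all groups for a gene, although CUR50 libraries spread more in these data. The rule was tried on made-up rows with known answers. TPM values are shares, so a fall of abundant genes raises all others, and their precision is unknown without read numbers. Differences on the log2(TPM + 1) scale understate changes of low genes. Genes singled out are the 2 members with the largest ratio of group mean TPM + 1 for CUR50 over CUR0, and the next 2 for CUR50 over Control; other members are given without identifier. Tried alternatives were other scalings, pseudocounts, filters and thresholds, fewer libraries, weights and a replicate block. Figures used matplotlib 3.10.9.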

Additional observations from a re-analysis of the deposited data

How the results depend on the processing

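The rule kept 81 genes after quantile normalization (79 of them members), 300 with a ratio of 1.5 (426 before the limit), 40 with a ratio of 3, 300 with a CUR50 mean of 1 TPM (341 before the limit), 90 with a mean of 10 TPM and 300 without the condition on overlap (385 before the limit). It kept 27 where every CUR50 library had to reach 2 times the larger mean, an alternative chosen after seeing the data, as were medians for means, the sums without CUR50 replicate 2 and the calls without the 10 most abundant genes. Leaving out single libraries gave 129 to 300 genes.

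In this paragraph, shares in parentheses are those of all tested genes called. They count genes called higher for the members, unless stated, and in either direction for the other genes of their clusters. Members called against CUR0 numbered 20 without the filter (0.225%), 29 without the trend (0.797%), 6 with 6 libraries (0.167%), 27 with array weights (0.630%) and 14 with the replicate block (0.214%), and 3 to 87 without single libraries (0.043% to 8.08%). Against Control there were 54 with 6 libraries (3.57%) and 33 to 106 without single libraries (1.54% to 8.66%). For CUR0 against Control there were 4 with 6 libraries (15.2% in either direction) and 0 to 2 without single libraries (1.97% to 13.7% in either direction). Other genes of the clusters called against CUR0 numbered 1 without the filter (0.630%), without the trend (2.08%) or with array weights (1.60%), 6 with a filter of 5 TPM (14.7%), and 0 with 6 libraries (0.583%) or the replicate block (0.727%). Without single libraries they numbered 0 to 10 (0.073% to 11.3%). Against Control these were 6 without the filter (3.82%), 7 without the trend (10.5%), 5 with 6 libraries (7.61%), 6 with the replicate block (8.68%) and 2 to 18 without single libraries (3.04% to 16.2%). The causes were not tested. The replicate numbers did not pair the libraries: deviations of same-numbered libraries correlated between -0.038 and 0.086, and 3 of 9 libraries correlated best with their own number.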

Other observations

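The same rule, turned to other groups, gave 68 genes raised only in CUR0 and 325 raised only in Control (300 kept by the limit). Turned downward, it gave 71 genes lowered only in CUR50, 44 lowered only in CUR0 and 162 lowered only in Control. The groups differ in spread, which enters the rule through the overlap of the libraries, and the differences between these counts were not tested.

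The 10 most abundant genes of the assembly took 21.6% ± 3.9 of all TPM in CUR50, 26.7% ± 2.0 in CUR0 and 24.0% ± 0.85 in Control (SD, n = 3). Without them and with TPM rescaled, the rule kept 133 genes, of which 113 were among the 141 members. Their part in the levels of the members was not otherwise tested.

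In the members with values above 0 in each group, the median coefficient of variation was 41.7% in CUR50, 27.1% in CUR0 and 21.1% in Control (n = 136 members). Over 15087 genes with a CUR50 mean of at least 5 TPM it was 16.7% in CUR50, 10.96% in CUR0 and 8.73% in Control. The median was higher for members in all 3 groups, as a description and with no test. Members and these genes were not matched on level. The median of all members was 4.14 TPM in CUR0 and 3.94 TPM in Control, while these genes were chosen by their CUR50 mean. The medians therefore do not show whether members varied more than genes of the same level.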
